A study of Bubalus bubalis with 6 samples.

Results

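The circRNAs described here were the short new exon circRNAs of buffalo subcutaneous adipose tissue. They were the entries of the deposited circRNA table whose type was exon, which the authors marked as new against circRNAs published for cattle, and whose genomic span, the distance between both back-splice coordinates, was at most 1000 bases. The rule used no expression value and took 670 of 14990 circRNAs (4.47%), or 670 of the 12946 new exon circRNAs. The deposited table holds many more circRNAs than the study reports as identified, and the study's methods name no filter that links both sets. A further 36 exon circRNAs of at most 1000 bases were marked as published and were left aside.

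The study sequenced total RNA, depleted of ribosomal RNA, from subcutaneous fat of Chinese swamp buffaloes kept on 1 farm and slaughtered for food. The comparison was between 3 adult animals of 30 months and 3 young animals of 6 months, with 1 library per animal to follow fat deposition with age, and no treatment is named. Age and animal are the only differences that the labels give, and neither sex nor body condition was given in the sources used here. Reads were mapped to the cattle genome, build UMD3.1, so that every coordinate below is a cattle coordinate as the table writes it.

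A circRNA forms when the spliceosome joins a downstream splice donor to an upstream acceptor, which closes 1 or several exons into a ring without cap or poly(A) tail. Rings lack the ends that exonucleases attack and tend to outlive the linear mRNA of their host gene. A back-splice whose ends lie close together on the genome can hold only a single exon or a few exons with short introns between them, while a distant pair can enclose many exons. Libraries made from RNA depleted of ribosomal RNA keep such rings, which a selection for poly(A) tails would lose.

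The 6 libraries held 10745 to 17680 back-spliced reads and 2807 to 5480 distinct circRNAs. The labelled tissue was checked on linear expression. Of 12 adipocyte markers 4 could be named in the mRNA table (PLIN4, CIDEC, LPL and PPARG), and their summed level was 2676 to 4697 FPKM in adult libraries and 346 to 1668 FPKM in young libraries. The nebulin and ryanodine receptor transcripts NEB and RYR1, markers of skeletal muscle, were at most 1.07 FPKM in every library. Young 2 stood apart, with the lowest adipocyte marker sum and the largest number of scaled units per read (2.59, against 1.42 to 2.09 in the other 5 libraries). The age differences in share of reads and in summed level are also given without it. Most other values below include it.

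The short circRNAs were shallowly covered. Together they had 3347 of 83165 back-spliced reads (4.02%), with a median of 2 reads per circRNA over all libraries, and 265 of them (39.6%) had 1 read in all. Reads were seen in 1 library for 432 circRNAs, in 2 for 122, in 3 for 56, in 4 for 24, in 5 for 19 and in all 6 for 17. Those 17 alone held 1080 reads, or 32.3% of all reads of the class. The new exon circRNAs of more than 1000 bases were covered alike, with a median of 2 reads and 39.5% at 1 read.

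Spans ran from 73 to 999 bases with a median of 580, with quartiles at 384 and 812. The shortest ring came from CHL1, a neural cell adhesion gene (22:26281278|26281351, 3 reads in adult 3 only), and the next from CAPRIN1, an RNA-binding regulator of translation (15:65483679|65483765, 1 read in young 1). Just inside the limit were rings of WDR7, which acts in vesicle acidification (24:56720991|56721990, 999 bases, 1 adult read and 3 young reads), and of the chromatin remodeller ATRX (X:79761001|79762000, 999 bases, 0 adult reads and 2 young reads). Just outside were rings of the kinase RIPK2 (1002 bases, 0 adult reads and 1 young read) and of the RNA helicase DDX50 (1004 bases, 3 adult reads and 7 young reads).

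The class was spread over many genes. Its members came from 621 host genes on 30 chromosomes, of which 574 gave 1 short circRNA, 45 gave 2 and only RAD50 and FLT1 gave 3. Chromosome 5 held 45 and chromosome 7 held 44, which were 6.10% of the new exon circRNAs on chromosome 5 and 9.36% of those on chromosome 7. The share was highest on chromosome 25, at 11.8% (22 short circRNAs). The host had no other circRNA in 197 cases. Among the 473 short circRNAs whose host made others, 79 held more than 50% of the host's back-spliced reads.

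Many short rings shared a splice site with a longer one. The start coordinate was shared with a longer circRNA in 132 cases, the end coordinate in 112 and each of them in 62, while 364 short circRNAs shared neither splice site with any longer circRNA in the table.

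Fewer short circRNAs were seen in adult than in young fat. Adult 1, 2 and 3 held 109, 154 and 95 of them, against 256, 260 and 263 in young 1, 2 and 3, so that the groups did not overlap. The means were 119 ± 30.8 in adult and 260 ± 3.51 in young fat (SD, n = 3 each), a ratio of 0.460, with an exact permutation p of 0.1, two-sided, the smallest that 3 animals against 3 allow. Thinning all libraries to the same number of back-spliced reads left an expected 109 short circRNAs on average in adult and 223 in young libraries, a ratio of 0.490.

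All distinct circRNAs together were fewer in adult fat, so each library's short circRNAs were also set against all its distinct circRNAs. They made up 3.11%, 3.40% and 3.38% of the distinct circRNAs in adult 1, 2 and 3, and 4.94%, 5.69% and 4.80% in young 1, 2 and 3. Every adult share was below every young share. The mean was 3.30 ± 0.162% in adult and 5.14 ± 0.478% in young fat (SD, n = 3 each; exact permutation p = 0.1), and at equal depth it was 3.31% in adult and 5.13% in young fat.

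The same held for their share of the back-spliced reads, which does not depend on the scaling between libraries. Short circRNAs took 3.23%, 3.46% and 3.33% of the reads in adult 1, 2 and 3. Exact 95% binomial intervals, which cover counting error only, were 2.92 to 3.55%, 3.19 to 3.76% and 3.00 to 3.69%. They took 4.26%, 5.60% and 4.25% in young 1, 2 and 3, with intervals of 3.92 to 4.61%, 5.20 to 6.03% and 3.96 to 4.56%. No adult interval reached any young interval. The means were 3.34 ± 0.120% in adult and 4.70 ± 0.781% in young fat (SD, n = 3 each; exact permutation p = 0.1), and the difference of 1.36 points fell to 0.911 points without young 2.

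On the deposited scale, back to linear units, the summed level of all short circRNAs was 781, 854 and 736 scaled reads in adult 1, 2 and 3 and 1218, 1782 and 1067 in young 1, 2 and 3. Adult fat thus had 790 ± 59.5 against 1356 ± 377 in young fat (SD, n = 3 each), a ratio of 0.583 with an exact permutation p of 0.1. Young 2 was the highest by far. Without it the difference between the ages shrank to 353 scaled reads less in adult fat, from 566 with it.

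**Figure D1:**
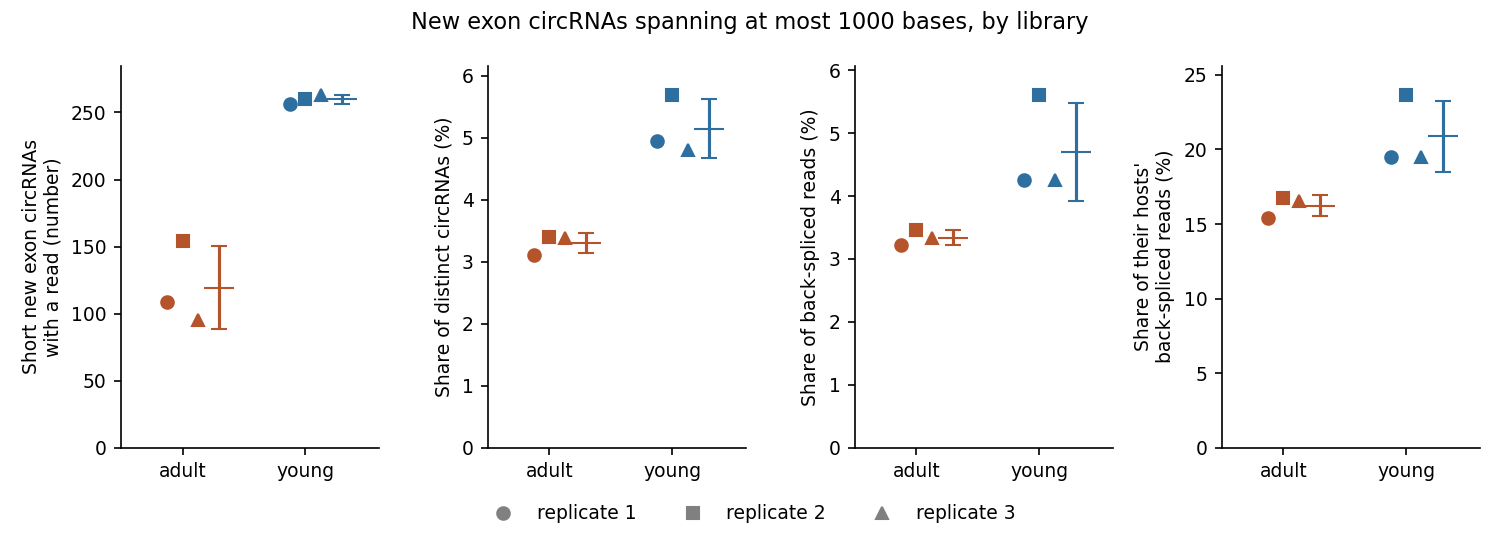
Each panel plots 1 value per library, adult left of young: the number of short new exon circRNAs with at least 1 read, their share of distinct circRNAs, their share of back-spliced reads and their share of the back-spliced reads of their own host genes (the last 3 in percent). Symbols are animals and bars show mean ± SD (n = 3 per age). In all 4 panels the adult libraries lie below the young libraries, for example 3.11 to 3.40% against 4.80 to 5.69% of distinct circRNAs. The hosts of the last panel were chosen through short rings read in any library, so that panel is not independent of the others.

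These differences in bulk tissue cannot tell fewer cells of a type from fewer rings per cell. Single markers of several cell types differed with age. By the limma test with Benjamini-Hochberg adjustment over all genes and transcripts, mRNA of LPL (adult 1395 to 3067 FPKM, young 57.5 to 331 FPKM, adjusted p = 0.00938) and VWF (adult 30.0 to 49.95 FPKM, young 6.32 to 15.4 FPKM, adjusted p = 0.0207) was higher in adult fat. That of CD163 (adult 12.01 to 20.3 FPKM, young 53.1 to 97.2 FPKM, adjusted p = 0.00394), THY1 (adult 53.6 to 90.7 FPKM, young 179 to 253 FPKM, adjusted p = 0.00814) and MYH11 (adult 10.1 to 18.6 FPKM, young 40.2 to 130 FPKM, adjusted p = 0.0153) was lower. These genes mark fat cells that take up lipid (LPL), endothelium (VWF), macrophages (CD163), stroma (THY1) and smooth muscle (MYH11). The other named markers of these types were not called by limma on the deposited FPKM. Their adjusted p was 0.112 to 0.218 for PLIN4, CIDEC and PPARG, and 0.0606 to 0.373 for PECAM1, KDR, TEK and FLT1. It was 0.372 for MRC1, 0.146 for PTPRC and 0.683 for COL3A1. This depended on the scale. With FPKM scaled to equal totals, PLIN4, CIDEC, PPARG, PECAM1, KDR, TEK and FLT1 were called higher in adult fat. Their limma adjusted p was then 0.00500 to 0.0295, where 44.6% of all genes and transcripts were called higher. MRC1, PTPRC and COL3A1 were not called on that scale either.

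The other marker sums cover the genes that could be named, 3 of 6 macrophage, 5 of 6 endothelial and 2 of 6 stromal markers. The macrophage sum (CD163, MRC1, PTPRC) was 50.5 to 77.1 FPKM in adult and 139 to 194 FPKM in young libraries, and the endothelial sum over 5 genes was 331 to 383 FPKM in adult and 132 to 316 FPKM in young libraries. The stromal sum (COL3A1 and THY1) was 709 to 1171 FPKM in adult and 723 to 1682 FPKM in young libraries. The part of cell composition in the circRNA result was not tested.

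Within their own host genes the short rings were also the smaller share in adult fat. They held 16.2 ± 0.707% of the back-spliced reads of their 621 hosts in adult and 20.9 ± 2.41% in young libraries (SD, n = 3 each; ratio 0.778, exact permutation p = 0.1). Hosts entered through a short ring read in any library, and 60.6% of the short rings were read in young fat only. The host set was thus chosen in part by the reads compared, so this share is no independent support. Other circRNAs of the same hosts summed to 4082 scaled reads on average in adult and 5067 in young libraries, a ratio of 0.806, again without overlap between the groups. All circRNAs together were lower too, at 22086.5 to 24639.3 scaled reads in adult and 25120.8 to 31798.3 in young libraries. The lower sum was thus not particular to these hosts. INSR, the host of the most abundant short ring, went the other way, and without that ring the shares were 14.3% in adult and 20.3% in young fat.

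The age difference reached past the 1000-base limit. New exon circRNAs were divided into classes by span, and the share of each class among distinct circRNAs was compared. Rings of up to 250 bases made up 0.332% in adult and 0.388% in young fat, with overlapping groups (exact permutation p = 0.3). From 250 to 500 bases the shares were 0.8995% in adult and 1.504% in young fat, a ratio of 0.598. From 500 to 750 bases they were 0.881% in adult and 1.71% in young fat, a ratio of 0.515, the lowest of the 10 classes by distinct circRNAs. The share from 750 to 1000 bases was 1.19% in adult and 1.54% in young fat, a ratio of 0.772.

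Past the limit the ratio was 0.738 from 1 to 2 kb and 0.818 from 2 to 5 kb, also with every adult library below every young library. It was 1.00 from 5 to 10 kb, 1.08 from 10 to 30 kb, 1.13 from 30 to 100 kb and 1.21 above 100 kb, with overlapping groups in those 4 classes. The median span of all new exon circRNAs seen in a library was accordingly longer in adult fat, 12181 ± 481 bases against 10190 ± 315 bases in young fat (SD, n = 3 each; exact permutation p = 0.1). Within the short class the median span was 584 bases in adult and 589 bases in young libraries (exact permutation p = 0.7).

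**Figure D2:**
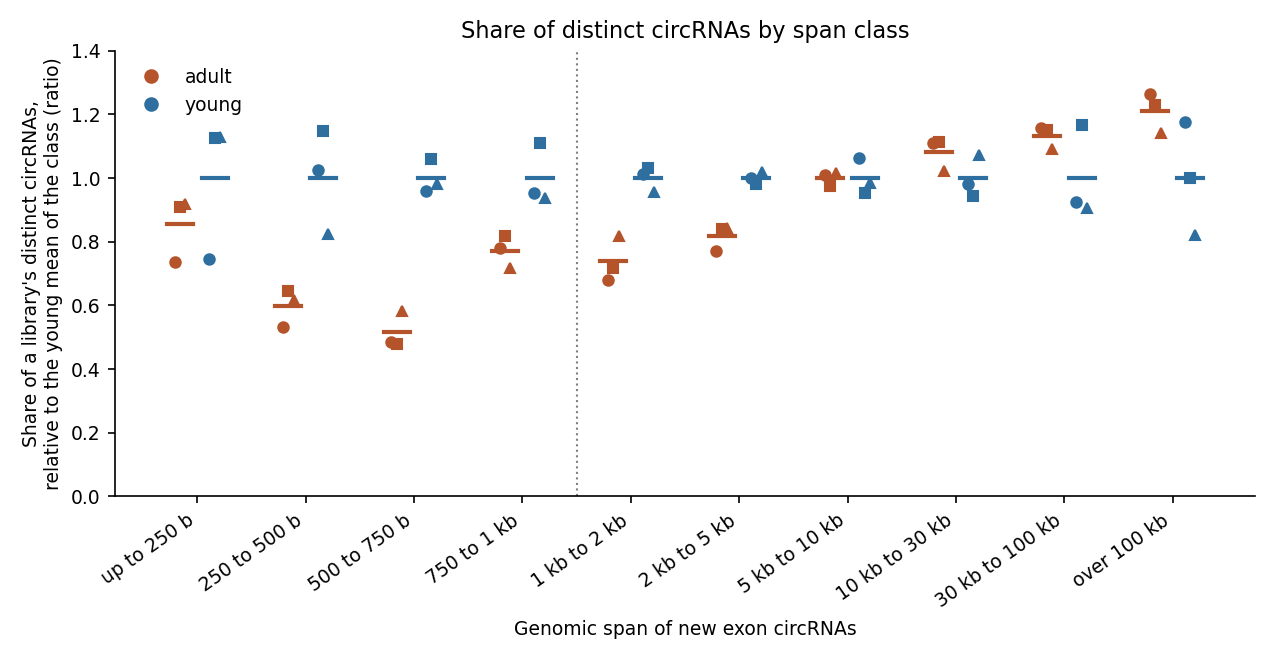
New exon circRNAs are grouped by genomic span on the x axis, from up to 250 bases to over 100 kb, and the y axis gives each library's share of distinct circRNAs divided by the young mean of that class (a ratio), adult points left of young points. Symbols are animals, short lines are means, and the dotted line marks the 1000-base limit. Adult means lie at 0.515 to 0.855 of the young mean in the 4 classes left of the limit and at 1.00 to 1.21 from 5 kb upward.

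Most short circRNAs were read in 1 age group only, which at this depth does not show that the other lacked them. Of the 670, 120 (17.9%) were read in adult fat only, 406 (60.6%) in young fat only and 144 (21.5%) in both. Among the 12276 longer new exon circRNAs the shares were 29.5% adult only, 47.8% young only and 22.7% both. A ring of ADAMTS12 was the 1 short circRNA with a read in every adult library and none in young fat, and 23 had a read in every young library and none in adult fat. Over all 14990 circRNAs these patterns took 0.314% and 1.85%, against 0.149% and 3.43% of the short class.

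The 23 rings had between 3 and 21 young reads, with a median of 8. The hosts of 15 of them made other circRNAs that were read in adult libraries. By limma, the linear mRNA of the 23 hosts was higher in adult fat for 3 (PAPOLA, RARS and ENSBTAG00000005501), lower for 1 (NCK1) and not called for 19, where 10.5% and 9.29% of all genes and transcripts were called higher and lower.

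Where adult libraries had no read, a fold change was set against a floor of 3 reads over the 3 adult libraries, 1.84 scaled reads on average. Such a fold uses the mean of the young libraries and leaves out their spread. SAMD4A, whose protein represses and destabilises bound mRNAs, gave the most abundant of the 23 rings (10:67430995|67431513). It had 0 reads in each adult library against 3, 12 and 6 reads in young 1, 2 and 3, at least 8.33-fold lower in adult fat. It made up 91.3% of the back-spliced reads of its gene, and SAMD4A mRNA was at 9.06 ± 2.92 FPKM in adult and 12.04 ± 2.37 FPKM in young fat (SD, n = 3 each; limma adjusted p = 0.319).

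PAPOLA encodes the nuclear poly(A) polymerase. Its ring (21:63023509|63024027) had 0 reads in each adult library and 7, 7 and 2 reads in young 1, 2 and 3, at least 6.46-fold lower in adult fat. The linear mRNA was higher in adult fat, at 93.8 ± 8.01 FPKM against 46.9 ± 6.86 FPKM in young fat (SD, n = 3 each; limma log2 fold change 0.99 ± 0.19 SE, adjusted p = 0.0150). Ring and mRNA of this gene thus differed with age in opposite directions in value. The ring was named for its lack of adult reads, though, so its direction was set by that choice. The mRNA difference passed the limma test, while the ring was not called by limma and was called by limma-voom. The ring entered both fits through young libraries alone.

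CNKSR3, a scaffold protein of aldosterone-regulated sodium transport in kidney, had a ring (9:92484536|92485271) with 0 reads in each adult library and 5, 4 and 7 reads in young 1, 2 and 3. The young values were nearly equal after scaling, 10.2 ± 0.262 (SD, n = 3). It was at least 5.58-fold lower in adult fat.

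The rings of NARS2, a mitochondrial asparaginyl-tRNA synthetase (29:17549576|17550174), and KIF2A, a kinesin that shortens microtubules (20:17026862|17027113), also had no adult read. NARS2 had 4, 7 and 4 reads in young 1, 2 and 3, at least 5.84-fold lower in adult fat, while other circRNAs of this gene had 43 adult and 53 young reads. KIF2A had 3, 3 and 8 reads in young 1, 2 and 3, at least 4.61-fold lower in adult fat.

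DTX4, an E3 ubiquitin ligase of the Deltex family linked to Notch signalling, gave a ring (15:83640019|83640860) that the study lists by position. The study counted the DTX4 ring as differing between the ages by its own thresholds, and listed it for negative correlations with THRSP and CDK5 mRNA. Neither limma nor limma-voom called it here at an adjusted p of 0.05. The DTX4 ring had 0 reads in each adult library and 2, 6 and 1 reads in young 1, 2 and 3. The opposite pattern was found only for ADAMTS12, a secreted metalloprotease (20:40150067|40150951), with 1, 2 and 2 reads in adult 1, 2 and 3 and 0 reads in each young library. At 5 reads in all, its fold against the young floor of 3 reads was at least 1.49-fold higher in adult fat.

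**Figure D3:**
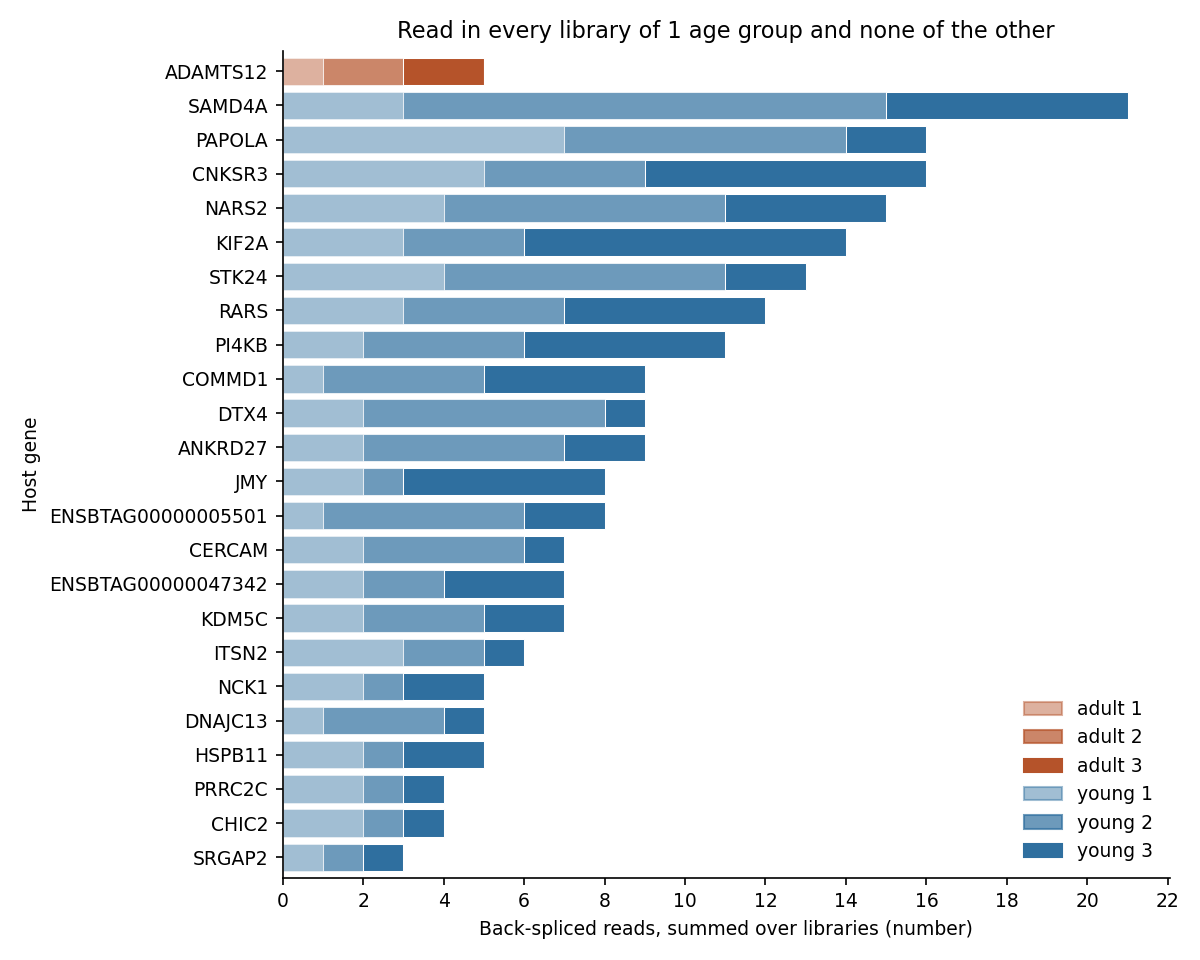
Stacked bars give the back-spliced reads of the short circRNAs that had a read in every library of 1 age group and none in the other, named by host gene, with adult libraries in orange and young libraries in blue (darker for higher replicate number). The bar of ADAMTS12 (5 adult reads) stands above 23 young bars, which run from 21 reads for SAMD4A to 3 for SRGAP2.

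Only the more abundant short circRNAs could be tested one by one. The test took circRNAs detected in 3 or more libraries, a condition that 116 of the 670 met and 554 did not. Of the 116, 23 entered through young libraries alone and 1 through adult libraries alone, so the tested set leans toward rings higher in young fat. The limma test, on the deposited log2 scale with adjustment over 2834 circRNAs, called none of the 116 at an adjusted p of 0.05, where 0.882% of all tested circRNAs were called.

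At an unadjusted p of 0.05, 5 were higher and 30 lower in adult fat, where 5.47% and 16.7% of all tested circRNAs were. limma-voom on the recovered reads, at an adjusted p of 0.05, gave 2 higher (INSR and C6orf89) and 11 lower, where 2.79% and 6.42% of all tested circRNAs were called. The 11 were SAMD4A, CNKSR3, NARS2, KIF2A, PAPOLA, SNX4, RARS, STK24, PI4KB, ZNF608 and SPTBN1. They were listed after their values were seen, and 8 of them had no adult read. The median log2 fold change of all tested circRNAs was -0.34 by limma and -0.15 by limma-voom, which scales libraries anew.

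SNX4, a sorting nexin of endosomal recycling (1:70538727|70539569), had 0, 2 and 0 reads in adult 1, 2 and 3 and 6, 12 and 4 in young 1, 2 and 3 (voom adjusted p = 0.0104, limma adjusted p = 0.0897). ZNF608, a zinc finger gene related to ZNF609, gave a ring of 255 bases (7:30391307|30391562) with 0, 6 and 0 reads in adult 1, 2 and 3 and 9, 4 and 11 in young 1, 2 and 3 (voom adjusted p = 0.0335, limma adjusted p = 0.0996). In both rings all adult reads came from adult 2.

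The 15 short circRNAs with the most reads held 1066 reads, 31.8% of the class, and are given in order of role, receptors and signalling first. INSR, the insulin receptor, gave by far the most abundant (7:17401915|17402466, 551 bases), which ranked 15th among all 14990 circRNAs. It had 76, 83 and 32 reads in adult 1, 2 and 3 and 25, 5 and 45 reads in young 1, 2 and 3. In scaled reads that was 147, 126 and 65.8 in adult 1, 2 and 3 and 52.2, 13.0 and 63.9 in young 1, 2 and 3.

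Every adult value of the INSR ring was above every young value, though adult 3 and young 3 were nearly equal. The log2 fold change was 1.57 ± 0.57 (SE, n = 3 each), with adjusted p = 0.116 by limma and 0.0125 by limma-voom. With 1 library left out and the same circRNAs tested, limma did not call it (adjusted p 0.163 to 0.296). Where the circRNAs tested changed too, the adjusted p was 0.00958 without young 1 and 0.00651 without young 3 when the filter was applied anew, 0.0253 with no filter and 0.0204 with circRNAs seen in at least 2 libraries. The ring held 99.3% of the 268 back-spliced reads of the gene. INSR mRNA was at 46.5 ± 3.69 FPKM in adult and 40.3 ± 17.9 FPKM in young fat (SD, n = 3 each; limma adjusted p = 0.533), a difference within the spread of the young animals, though at equal FPKM totals its log2 fold change was 1.08 (adjusted p = 0.0190).

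FLT1, the receptor VEGFR1 of endothelial cells, gave 3 short rings. The main ring (12:31680654|31681573) had 7, 2 and 8 reads in adult 1, 2 and 3 and 8, 7 and 13 in young 1, 2 and 3, with adjusted p = 0.548 by limma. After scaling, the young values lay close together (17.8 ± 0.947) and all 3 adult values lay below them (11.0 ± 7.06; SD, n = 3 each). The other rings (12:31722101|31723047 and 12:31838337|31839070) had 2 reads in adult 2 and 1 read in young 3.

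ACVR2A, a type II receptor for activins and myostatin (2:48411976|48412431), had 1, 3 and 10 reads in adult 1, 2 and 3 and 6, 3 and 16 in young 1, 2 and 3. LPAR3, a receptor for lysophosphatidic acid and the host of no other circRNA (3:59404597|59405353), had 7, 8 and 12 reads in adult 1, 2 and 3 and 5, 5 and 2 in young 1, 2 and 3 (log2 fold change 1.00 ± 0.70 SE, limma adjusted p = 0.501). Its linear mRNA was higher in adult fat, at 11.1 ± 1.82 FPKM against 3.57 ± 0.378 FPKM in young fat (SD, n = 3 each; log2 fold change 1.40 ± 0.20 SE, limma adjusted p = 0.00498). GFRA2, the neurturin receptor (8:69566317|69566671), had 2, 6 and 1 reads in adult 1, 2 and 3 and 7, 16 and 4 in young 1, 2 and 3, with mRNA at 2.70 ± 0.367 FPKM in adult and 6.07 ± 1.70 FPKM in young fat (SD, n = 3 each; limma adjusted p = 0.0436).

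Of the regulators of protein turnover, LNX1, a ubiquitin ligase that binds Numb (6:70692531|70693410), had 21, 10 and 7 reads in adult 1, 2 and 3 and 6, 0 and 2 in young 1, 2 and 3. After scaling, all adult values (14.4 to 40.7) lay above all young values (0 to 12.5), with a log2 fold change of 2.55 ± 0.96 (SE, n = 3 each) and adjusted p = 0.128 by limma. Without young 1 this p was 0.0998 with the same circRNAs tested and 0.0280 with the filter applied anew. UBR2, a ubiquitin ligase of the N-end rule pathway (23:16344530|16345293), was even, with 8, 7 and 8 reads in adult 1, 2 and 3 and 7, 10 and 8 in young 1, 2 and 3. STK3, the Hippo pathway kinase MST2 (14:67763758|67764595), had 6, 10 and 4 reads in adult 1, 2 and 3 and 5, 16 and 15 in young 1, 2 and 3, and its groups overlapped.

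Among the nucleic acid regulators, ZNF609, whose exon ring was studied in human and mouse myoblasts, gave the third most abundant ring (10:45609923|45610796). It had 4, 9 and 3 reads in adult 1, 2 and 3 and 13, 31 and 24 in young 1, 2 and 3. Scaled, it was at 7.75, 13.6 and 6.17 in adult 1, 2 and 3 and at 27.1, 80.3 and 34.1 in young 1, 2 and 3, with no overlap between the groups. The log2 fold change was -2.15 ± 0.59 (SE, n = 3 each), with adjusted p = 0.0897 by limma and 0.0843 by limma-voom. Without young 1 the limma adjusted p was 0.0998 with the same circRNAs tested and 0.0326 with the filter applied anew. ZNF609 mRNA was also lower in value, at 19.7 ± 2.22 FPKM in adult and 30.5 ± 2.13 FPKM in young fat (SD, n = 3 each; limma adjusted p = 0.0531), a direction that turned at equal FPKM totals (log2 fold change 0.17, adjusted p = 0.428).

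G3BP1, the stress granule protein (7:64991351|64992060), had 10, 4 and 4 reads in adult 1, 2 and 3 and 13, 6 and 13 in young 1, 2 and 3. MLLT3, a reader of acylated histones in the super elongation complex and host of this ring alone (8:23963190|23963897), had 2, 12 and 12 reads in adult 1, 2 and 3 and 3, 9 and 6 in young 1, 2 and 3. Its mRNA was lower in adult fat, at 3.72 ± 1.62 FPKM against 8.04 ± 1.04 FPKM in young fat (SD, n = 3 each; limma adjusted p = 0.0460), while the ring showed no age difference beyond its spread (log2 fold change 0.17 ± 0.79 SE).

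The second most abundant ring came from LRRCC1, a centriole protein (14:79845561|79846107), with 8, 23 and 35 reads in adult 1, 2 and 3 and 23, 16 and 35 in young 1, 2 and 3. Young libraries were even after scaling (41.4 to 49.7), whereas adult libraries ranged over 15.5 to 71.9 and enclosed them. FRY, a large microtubule-associated protein (12:28811478|28812080), had 4, 27 and 8 reads in adult 1, 2 and 3 and 10, 5 and 11 in young 1, 2 and 3. Both differences were smaller than the spread between animals, with limma adjusted p of 0.693 for LRRCC1 and 0.939 for FRY.

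SYT9, a synaptotagmin of regulated exocytosis (15:46036452|46036998), had 13, 17 and 10 reads in adult 1, 2 and 3 and 4, 9 and 14 in young 1, 2 and 3 (limma adjusted p = 0.639). Its mRNA was higher in adult fat, at 13.0 ± 2.03 FPKM against 5.60 ± 2.96 FPKM in young fat (SD, n = 3 each; limma adjusted p = 0.0487). GFM2, a factor of mitochondrial ribosome recycling (20:6691873|6692376), had 10, 7 and 6 reads in adult 1, 2 and 3 and 8, 4 and 6 in young 1, 2 and 3. GFM2 mRNA was likewise higher, at 16.7 ± 1.75 FPKM in adult and 9.87 ± 1.69 FPKM in young fat (SD, n = 3 each; limma adjusted p = 0.0463).

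**Figure D4:**
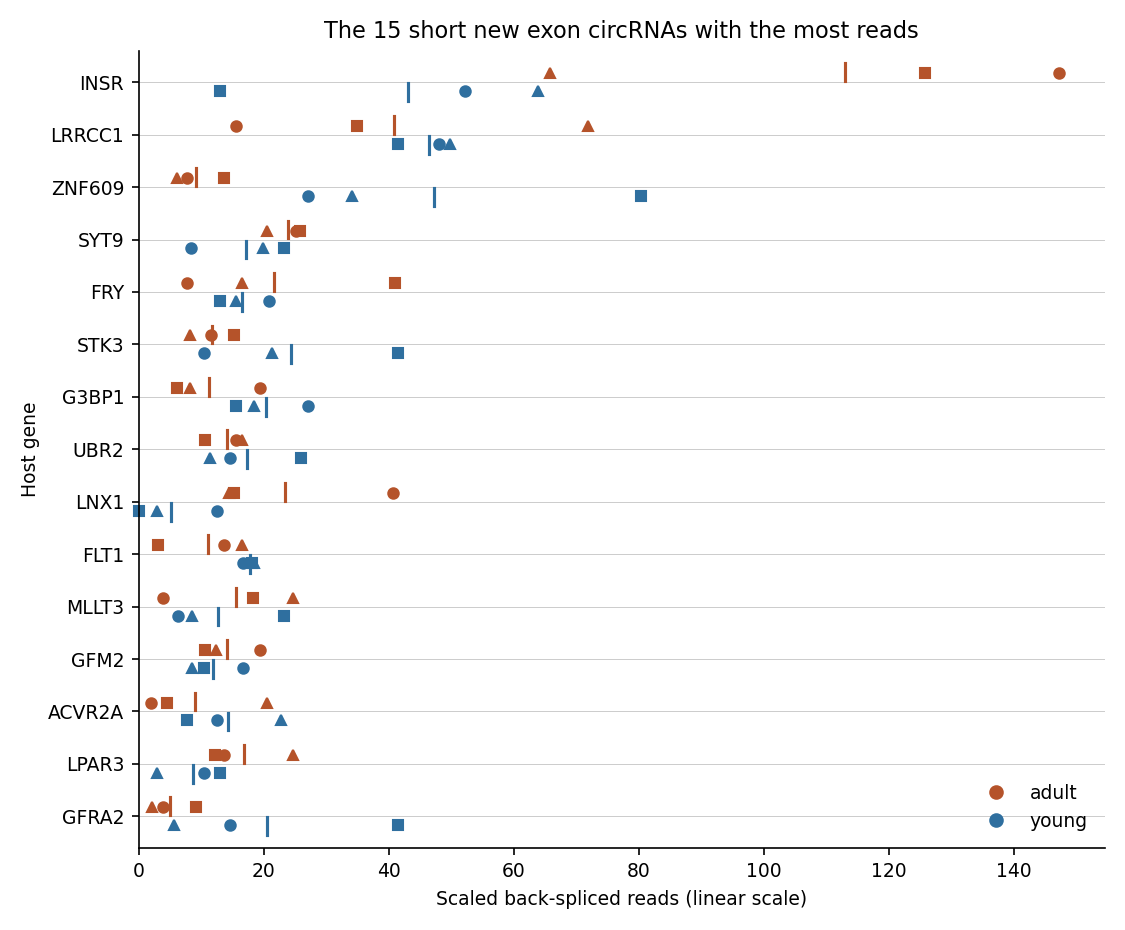
The 15 short circRNAs with the most reads are listed by host gene, and the x axis gives their level in scaled back-spliced reads on a linear scale, adult points above young points in each row. Symbols are animals (circle, square and triangle for replicates 1, 2 and 3) and vertical lines are group means. INSR stands out at 65.8 to 147 in adult libraries against 13.0 to 63.9 in young libraries, and ZNF609 lies the other way, at 6.17 to 13.6 in adult and 27.1 to 80.3 in young libraries.

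Short rings were also compared with longer ones in the number of reads of a ring once seen. In the same libraries, detected short circRNAs had 3.15 reads on average and the longer new exon circRNAs 2.86 reads, a difference of 0.291 that was positive in 5 of 6 libraries (exact sign-flip permutation p = 0.0625, two-sided). This difference rested on INSR. Without that ring it was -0.000685 (exact sign-flip permutation p = 0.969). For rings of at most 500 bases against all longer ones it was -0.490, negative in 6 of 6 libraries and at the smallest p that an exact sign-flip permutation over 6 libraries can give. The share with a single read was 43.4% for short and 44.9% for longer new exon circRNAs (exact sign-flip permutation p = 0.1875). By age this share was 36.0% in adult and 50.9% in young libraries for short rings, and 37.3% and 52.6% for longer ones. Reads per detected ring went the other way, at 3.71 in adult and 2.59 in young libraries for short rings. For longer rings they were 3.22 and 2.50. The age groups did not overlap in any of these values.

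The linear mRNA of the hosts was compared in the same libraries. Of 621 hosts 612 had a mean of at least 0.5 FPKM and were tested by limma. In adult fat 61 were higher and 48 lower, where 10.5% and 9.29% of all genes and transcripts were called higher and lower. The summed FPKM of whole libraries differed with age, at 657311 to 721755 in adult and 1093380 to 1237790 in young libraries. With FPKM scaled to equal totals, which moves the median log2 fold change of all genes from 0.01 to 0.67, 340 of the 612 hosts were higher and 12 lower, where 44.6% and 4.24% of all genes and transcripts were. Directions of host mRNA are therefore given for the deposited FPKM. On the other scale the lower mRNA of MLLT3, GFRA2, RAD50 and NCK1 was no longer called (adjusted p = 0.382 for MLLT3, 0.437 for GFRA2, 0.279 for RAD50 and 0.198 for NCK1), while that of CD163, THY1 and MYH11 and the higher mRNA of PAPOLA, LPAR3, SYT9, GFM2, RARS, LPL and VWF still was.

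The host calls also leaned on single animals. Leaving out any 1 library kept those of LPAR3 (limma adjusted p 0.0110 to 0.0309), LPL (0.00554 to 0.0434), CD163 (0.00244 to 0.0222) and THY1 (0.0159 to 0.0371). PAPOLA lost its call without adult 1, 2 or 3 (0.0511, 0.0762 and 0.0599), as did NCK1, and RAD50 lost it without adult 1 (0.0573). MYH11 lost it without adult 1 or 2 (0.0540 and 0.0676), VWF without adult 1, 2 or 3 (0.0822, 0.0515 and 0.0684), and RARS without any adult library or young 1. SYT9, GFM2 and GFRA2 kept it only without young 3, and MLLT3 only without adult 2.

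**Figure D5:**
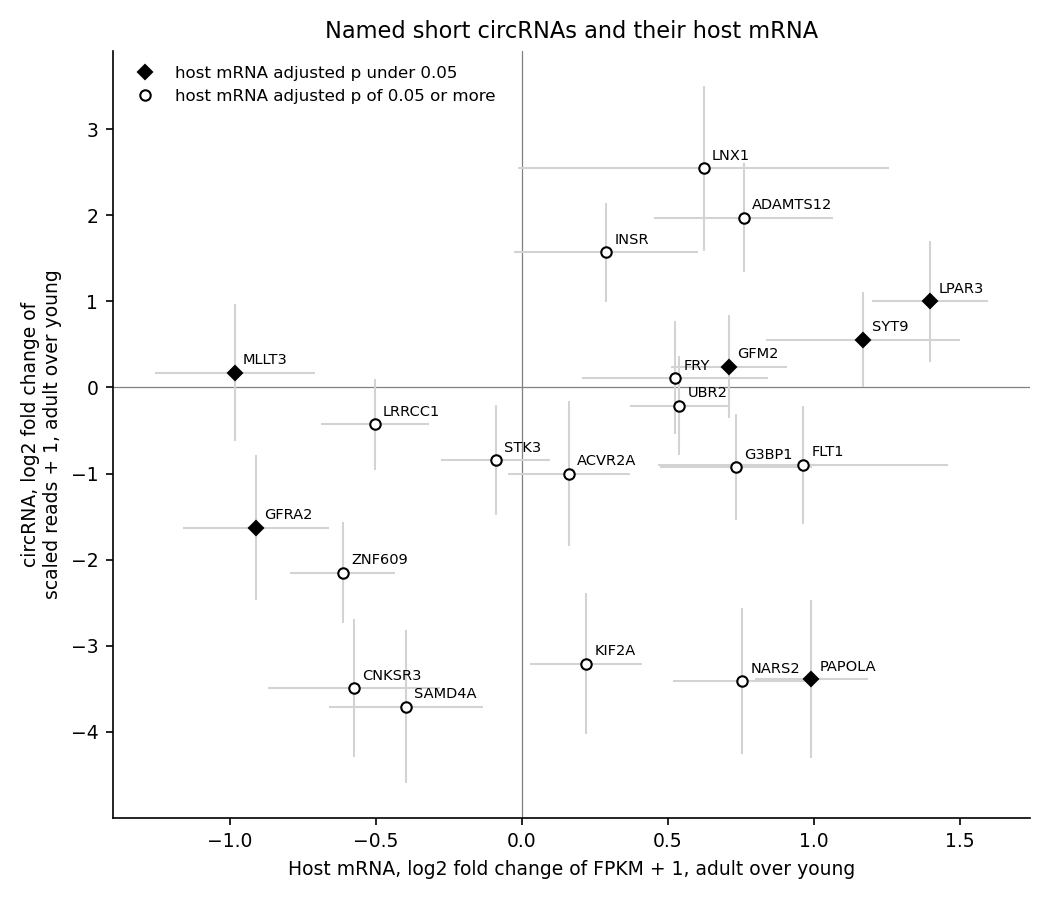
Each point is 1 of the 21 short circRNAs with the most reads or with reads in every library of 1 age group only, by the rule for named circRNAs. The x axis gives the log2 fold change of host mRNA (FPKM + 1) and the y axis that of the circRNA (scaled reads + 1), both adult over young, with bars of 1 SE. Filled diamonds mark hosts whose mRNA passed an adjusted p of 0.05. PAPOLA lies at 0.99 for mRNA and -3.39 for the ring, and LPAR3 at 1.40 and 1.00. For rings named for reads in only 1 age group, such as PAPOLA, that choice set the direction on the y axis.

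Of 67 genes for lipid synthesis, uptake and storage, 33 were hosts of a circRNA and 4 of these (12.1%) of a short one, where 621 of all 4308 circRNA host genes (14.4%) were. CIDEC, a lipid droplet protein (22:16914206|16914633), had 6, 5 and 0 reads in adult 1, 2 and 3 and 0, 0 and 3 in young 1, 2 and 3. The acyltransferase MOGAT1 (2:111614431|111615378) had 0 adult and 3 young reads, and the acyl-CoA synthetase ACSL3 (2:111856302|111856715) 0 adult and 2 young reads. On the mRNA side of that list, 15 of 32 tested genes were higher and 1 lower in adult fat by limma, where 10.5% and 9.29% of all genes and transcripts were. At equal FPKM totals 23 were higher and 0 lower, where 44.6% and 4.24% of all were.

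Regulators of adipocyte formation, a list of 52 genes with 29 circRNA hosts, gave 6 short rings with 196 adult and 89 young reads, of which INSR gave 191 adult and 75 young reads. RXRA, the retinoid receptor that pairs with PPARG, gave one (11:105996708|105997482) with 0, 1 and 0 reads in adult 1, 2 and 3 and 5, 0 and 2 in young 1, 2 and 3. The co-repressor NCOR1 gave a pair, 19:34019729|34020089 with 0 adult reads and 3 reads in young 2, and 19:34030343|34030889 with 3 reads in adult 2 and 0 young reads. Of the mRNAs of the list, 1 of 29 was higher and 2 lower in adult fat by limma, where 10.5% and 9.29% of all genes and transcripts were. At equal FPKM totals 13 were higher and 0 lower, where 44.6% and 4.24% of all were.

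Chromatin regulators were the list with the most genes, circRNA hosts and short rings. Of 74 genes 66 were circRNA hosts, and 13 of them (19.7%) gave a short ring, where 14.4% of all circRNA host genes did. Of their 15 short rings 1 was read in adult fat only, 12 in young fat only and 2 in both. Over the whole short class 17.9% were read in adult fat only, 60.6% in young fat only and 21.5% in both. The 15 rings had 29 adult and 52 young reads, 26 of the adult reads being from MLLT3. BAZ2B, a bromodomain protein (2:37145894|37146539), had 1, 0 and 0 reads in adult 1, 2 and 3 and 1, 3 and 2 in young 1, 2 and 3. The histone methyltransferase EZH1 (19:43410299|43410937) had 0 adult and 5 young reads, and the remodeller CHD6 (13:70856703|70857223) 0 adult and 4 young reads, all from young 3. On the mRNA side 1 of 66 was higher and 13 lower in adult fat by limma, where 10.5% and 9.29% of all genes and transcripts were. At equal FPKM totals 24 were higher and 0 lower, where 44.6% and 4.24% of all were, so the direction of this list depends on the scale.

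Of 42 matrix and integrin genes 33 were circRNA hosts, and 7 of them (21.2%) gave 8 short rings. Of these rings 4 were read in adult fat only and 4 in young fat only, with 12 adult and 8 young reads. The basement membrane genes LAMC1 (4 reads, all in adult 2) and NID2 (3 reads, all in young 2) were among the hosts. Of 68 RNA-binding and splicing genes 51 were circRNA hosts, and 5 of them (9.80%) gave a short ring. MBNL2, a splicing regulator (12:78336155|78336932), had 8, 4 and 8 reads in adult 1, 2 and 3 and 1, 7 and 0 in young 1, 2 and 3 (limma adjusted p = 0.424). QKI, which promotes ring formation by binding flanking introns in human cells, gave 1 short ring with a single read in adult 2.

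Of the marker genes of other cell types 13 were circRNA hosts and 4 of them gave a short ring. FLT1 and the angiopoietin receptor TEK gave 5 endothelial rings with 22 adult and 33 young reads. THY1 (15:30511732|30512616) had 1 read in adult 1 and 8, 0 and 1 reads in young 1, 2 and 3. MYH11 (25:14226970|14227330) had 0 adult reads and 5, 4 and 0 reads in young 1, 2 and 3. This ring was read in too few libraries to be tested. MYH11 mRNA was lower in adult fat, as given above. No macrophage or skeletal muscle marker was host to a short ring.

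RAD50, a DNA repair ATPase, gave 3 short rings, each seen in a different young library: 7:23097693|23098535 with 3 reads in young 1, 7:23122570|23123080 with 3 reads in young 3 and 7:23130265|23130992 with 1 read in young 2. None had an adult read. RAD50 mRNA was lower in adult fat, at 8.33 ± 0.973 FPKM against 17.8 ± 1.47 FPKM in young fat (SD, n = 3 each; limma log2 fold change -1.01 ± 0.18 SE, adjusted p = 0.0114). That call was lost at equal FPKM totals, as given above.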

How the data were processed

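Total RNA, depleted of rRNA with Ribo-Zero, from 3 adult and 3 young animals was sequenced in paired ends. Per the study's methods, the authors trimmed reads (Trim Galore), mapped them to cattle UMD3.1 with STAR and called back-splices with CIRCexplorer2; TopHat2 2.0.14 and Cufflinks stand in the submitters' processing notes without a role. The deposited circRNA values are log2(x + 1). In each library x is a whole multiple (100% of values, relative tolerance 1e-06) of 1 step, 1.42 to 2.59 per read, so reads were recovered; since the step is not given in the sources used here, x is called scaled reads. The deposited mRNA values are log2(FPKM + 1) per transcript, summed here per named gene. The authors' tables of called transcripts, chosen by their own fold changes and p-values, and the lncRNA tables were not used.

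limma 3.58.1 (R 4.3.3; trend) was fitted on the log2 scale over 2834 circRNAs detected in 3 or more libraries, and over 14679 genes and transcripts with a mean of at least 0.5 FPKM (pseudocount 1), with Benjamini-Hochberg adjustment over each table. A fold change on this scale understates low levels. Library values were compared by exact permutation, and short with longer circRNAs by exact sign-flip over libraries. Fits were tested on simulated data. Samples were grouped by the age in the labels, and 21 host symbols that had become numbers were left blank. The circRNAs and gene lists were chosen with earlier results of these data known. Circles named are the 15 with the most reads, those past the adjusted p, up to 5 per direction read in every library of only 1 age, hosts of 3 or more, the ends of the span range, up to 6 per gene list and any that the study lists by position. Alternatives were another pseudocount, other filters, robust variance, a replicate block, limma-voom, leaving out each library, other span limits and, added after the data were seen, equal FPKM totals, leaving out the INSR circle, leaving out each library with the same circRNAs tested, circRNAs read in at least 2 libraries for the number and share, and new exon circRNAs as denominator of that share. Sequences were not used here.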

Additional observations from a re-analysis of the deposited data

How the results depend on the processing

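The number, the shares and the summed level of short circRNAs kept their direction under every alternative run. Leaving out 1 library at a time gave differences of -157.667 to -128.167 in number, -2.01 to -1.57 percentage points of distinct circRNAs, -1.59 to -0.911 points of reads and -710 to -353 scaled reads. Reads per detected short circRNA turned from 0.291 above longer ones to -0.490 at a span of at most 500 bases and to -0.000685 without INSR, and the difference of medians was 0; leave-one-out values ran from 0.238 to 0.352.

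Calls depended on the fit. Against 0 of 116 (0.882% of all circRNAs tested), there were 2 with circRNAs read in at least 2 libraries (1.70% of all), 1 with no filter (0.347% of all) and 13 with limma-voom (9.21% of all). Leaving out 1 library gave 0 to 3 calls where the filter was applied anew (3 without young 1; 0.672 to 2.59% of all), and 0 in all 6 fits where the same circRNAs were tested. Host mRNA calls were 109 (19.8% of all genes and transcripts), 30 to 131 leaving out 1 library (6.68 to 22.0% of all), with 30, 33 and 52 without adult 1, 2 and 3, and 352 at equal FPKM totals (48.8% of all).

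Samples with the same replicate number did not deviate together (correlations 0.022 to 0.036 for circRNAs and -0.126 to -0.032 for mRNA), so the numbers pair nothing; a replicate block gave 7 circRNA calls (6.03% of the short circRNAs, 4.73% of all) and 44 host mRNA calls (7.19% of the hosts, 9.99% of all).

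The sign of small, uncalled changes of single circRNAs turned when 1 library was left out. The log2 fold changes ran from -0.96 to 0.11 for LRRCC1, from -0.48 to 0.65 for FRY, from -0.45 to 0.11 for UBR2 and from -0.30 to 0.90 for MLLT3, and limma-voom gave 0.040 for UBR2. Depth limits the rest: 554 short circRNAs were too rarely read to test.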
